A study of Mus musculus with 44 samples.

Results

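The RING1B peaks described here were short peaks that lay just outside listed regions of the histone mark H3K27me3 in cultured mouse blood progenitors. They were chosen by 3 values of the deposited peak lists: a RING1B peak at most 2000 bp wide, sharing no base with a listed H3K27me3 region, and ending at most 1000 bp from the nearest such region on the same chromosome. The rule found 2074 of the 24987 RING1B peaks (8.30%, 95% interval 7.96 to 8.65%). They made up 10.3% of the 20191 RING1B peaks of up to 2000 bp, and 16.1% of the 12906 such peaks that lay off H3K27me3. A further 231 RING1B peaks lay as close to an H3K27me3 region but were wider than 2000 bp, and they are not counted among the 2074.

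RING1B is the ubiquitin ligase subunit of Polycomb repressive complex 1, which binds silent genes of development and lineage choice and places ubiquitin on histone H2A. H3K27me3 is the repressive methyl mark that Polycomb repressive complex 2 writes, often over broad domains, and some forms of complex 1 bind to it through chromobox subunits. PCGF1 is the subunit that defines one variant form of complex 1, a form that does not need the methyl mark to bind and that is recruited to unmethylated CpG-rich DNA through KDM2B. A RING1B site beside a methylated domain can therefore be set against both the domain next to it and the PCGF1 sites under it.

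The series comprised 44 chromatin immunoprecipitation and input libraries in 23 groups, and the 3 peak lists used here stand for 6 of them; the other 38 were not analysed here. All 6 came from IdHP cells, progenitors derived from the bone marrow of B6CBAF1/J mice and cultured for 15 to 18 passages on TSt4 stromal cells in the presence of SCF, IL7 and Flt3L. RING1B, taken with an antibody made in-house, and H3K27me3 were mapped in Pcgf1 fl/fl cells, which carry a floxed but intact Pcgf1 gene. PCGF1 was mapped with an antibody to FLAG in Pcgf1 -/- cells that carried FLAG-PCGF1, with the promoter of the construct not given in the labels, so a PCGF1 peak under a RING1B peak sets 2 cell populations side by side. Each list is a single deposited result for 2 libraries, and the labels do not say whether those came from separate cultures. There are therefore no values per library and no replicate error, and read depth is unknown. The intervals in parentheses are 95% intervals that cover counting error over peaks only, and adjacent peaks of 1 list may depend on each other. The lists carry no cell type markers against which to check the cells, and the positions, read as mouse build mm9, could not be placed on genes with the annotation used here.

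The peaks were narrow by the rule, and few were strong. Width ran from 165 to 1975 bp with a median of 595 bp and quartiles of 347 and 963 bp. The deposited RING1B fold enrichment, the ratio of signal in a peak to the peak caller's background, ran from 1.84 to 8.48 with a median of 3.14, and the deposited −log10 q ran from 1.13 to 22.9 with a median of 2.07. A fold of 3 or more was reached by 1519 peaks (73.2%), of 4 or more by 110 (5.30%) and of 5 or more by 22 (1.06%). The quartiles of fold were 2.99 and 3.37, with a thin tail of strong sites above them. A −log10 q of 5 or more was found for 91 peaks (4.39%), against 9.96% of the whole RING1B list, and 10 or more for 19. The medians of the whole list were 3.22 for fold and 2.28 for −log10 q. These folds and q values come from the same RING1B signal that set the widths used by the rule, so they describe the set and test nothing about it.

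Peaks on either side of the limits looked alike. The 3 peaks nearest to the gap limit on the inside had gaps of 1000, 999 and 999 bp and folds of 3.81, 3.14 and 2.98. The 3 just outside had gaps of 1001, 1002 and 1002 bp and folds of 2.83, 3.51 and 3.30. At the width limit, the widest peaks inside were 1975, 1971 and 1964 bp wide with folds of 3.22, 4.51 and 3.33, and the narrowest flanking peaks left out were 2009, 2015 and 2016 bp wide with folds of 3.31, 3.19 and 3.41.

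The listed H3K27me3 borders were coarse. Every listed region was at least 750 bp wide and at least 1510 bp from the next, and each was at least 80 bp wider than its own stretch above the list's cutoff, with a median excess of 1610 bp. Listed regions thus include sequence below the cutoff, whose place within the region the list does not give. RING1B peaks in turn were at least 661 bp apart.

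Against that resolution, no build-up of short RING1B peaks at the border itself was seen. Counted by peak midpoint, short peaks numbered 7.98 per Mb (7.32 to 8.68) in the first 250 bp outside H3K27me3 and 7.70 per Mb (7.05 to 8.39) in the last 250 bp inside it. Outside, the density was 9.14 per Mb at 750 to 1000 bp and 9.29 per Mb (8.86 to 9.72) at 1 to 2 kb, then fell with distance to 7.60 at 2 to 5 kb, 6.39 at 5 to 10 kb, 5.26 at 10 to 50 kb and 1.86 (1.66 to 2.08) beyond 50 kb. The flank as a whole, at 8.53 per Mb (8.18 to 8.89), held more short peaks than sequence farther away, at 6.06 per Mb (5.95 to 6.18). It held fewer than the interior of H3K27me3 more than 2 kb from a border, at 20.7 per Mb (20.1 to 21.4). Just inside the border the density was lower than in that interior, with 7.44 per Mb at 250 to 500 bp and 7.13 per Mb (6.57 to 7.72) at 500 to 1000 bp inside. The flank was thus denser than the sequence 250 to 1000 bp inside the regions, and the density had no maximum at the listed border on either side. The classes inside do not draw on the same regions. The median listed region was 1840 bp wide, so only wider ones reach more than 2 kb from a border. RING1B lay on 1.37% of regions of up to 1500 bp and 33.6% beyond 12000 bp, among regions not next to a flanking peak. The part of region width in the contrast between interior and border was not tested.

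**Figure D1:**
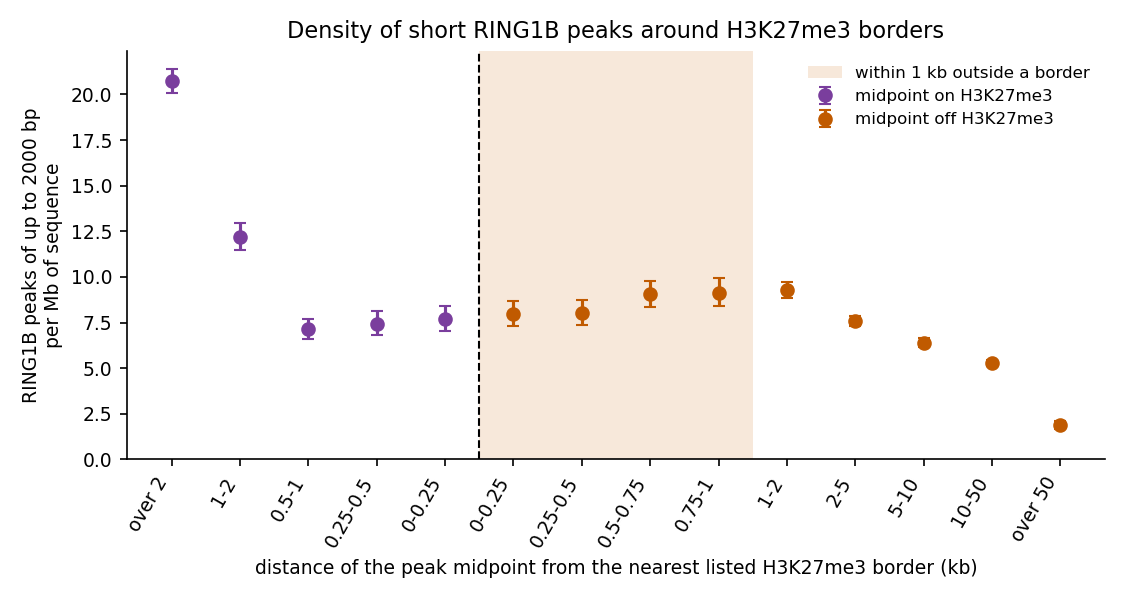
Short RING1B peaks per Mb of sequence (y axis) by distance of the peak midpoint to the nearest listed H3K27me3 border (x axis, classes inside and outside the regions), with exact Poisson 95% intervals. The density is 7.70 per Mb just inside and 7.98 per Mb just outside the border, 7.13 per Mb at 500 to 1000 bp inside, 20.7 per Mb deep inside and 1.86 per Mb beyond 50 kb.

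The gaps themselves were spread over the whole range the rule allowed, with no steady rise or fall. Per 100 bp of gap there were between 169 (144 to 196) and 228 (199 to 260) peaks, so the spread was not fully even. There were 181 at 1 to 100 bp and 194 in the last 100 bp. The median gap was 500 bp, the middle of the range. The nearest region lay at the lower coordinate in 1023 cases (49.3%) and at the higher in 1051 (50.7%). Peaks within 100 bp of a region were wider, with a median width of 752 bp, against 546 to 658 bp in the other classes. Peaks with a gap of up to 500 bp also differed in setting from those with a longer gap. The nearest region had a median width of 3140 bp (2810 to 3460) for the first and 2520 bp (2310 to 2780) for the second. A second region within 1000 bp on the other side was found for 16.0% (13.8 to 18.3) against 9.86% (8.11 to 11.8). This contrast was partly set in advance. The gap is the smaller of the gaps on the 2 sides, so peaks with a region on both sides have shorter gaps by definition.

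**Figure D2:**
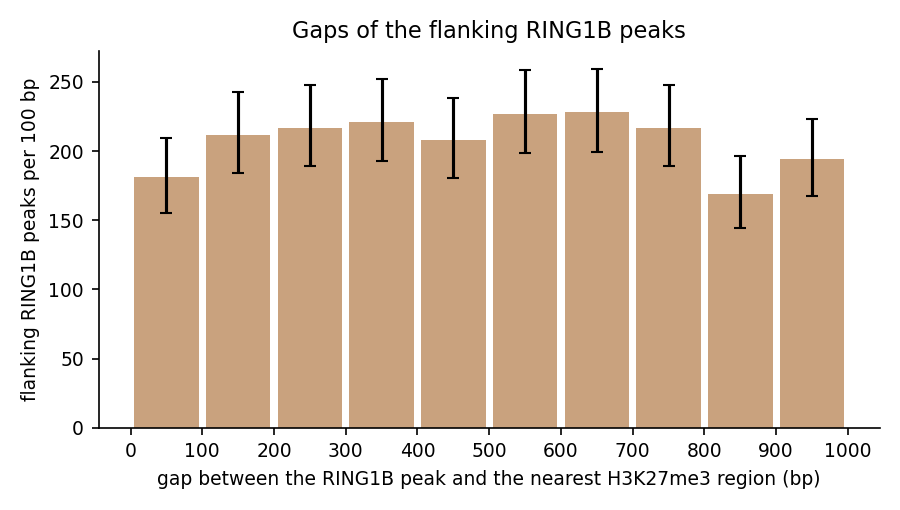
Number of flanking RING1B peaks (y axis) in each 100 bp of gap to the nearest H3K27me3 region (x axis), with exact Poisson 95% intervals. The bars run from 169 to 228 peaks, with 181 in the class nearest to the border and 194 in the farthest.

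In RING1B fold the flanking peaks stood in a series that ran from H3K27me3 outwards. The median was 3.08 (3.07 to 3.08) for short peaks wholly on H3K27me3, 3.12 (3.11 to 3.14) for those crossing a border, 3.14 (3.13 to 3.16) for the flanking peaks, 3.18 (3.16 to 3.19) at 1 to 5 kb and 3.30 (3.29 to 3.31) beyond 5 kb. The intervals of the flanking and the border-crossing peaks overlapped. The same order was seen within widths, since wider peaks had higher folds. Among peaks of 1000 to 2000 bp the medians were 3.16 on H3K27me3, 3.18 across a border, 3.24 (3.21 to 3.27) in the flank, 3.30 (3.26 to 3.32) at 1 to 5 kb and 3.47 (3.43 to 3.50) beyond 5 kb.

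The share of strong peaks followed the same course. A −log10 q of 5 or more was found in 1.32% (1.04 to 1.65) of short peaks wholly on H3K27me3, in 4.39% (3.55 to 5.36) of the flanking peaks and in 13.3% (12.5 to 14.1) of short peaks beyond 5 kb. Short peaks farther than 50 kb from any H3K27me3 region, the sparsest class, had the highest share, at 21.7%. The flanking peaks thus lay between the numerous weak peaks on the mark and the sparser, stronger peaks away from it.

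PCGF1 peaks lay under few of the flanking peaks, at about the rate of all short RING1B peaks. A PCGF1 peak shared at least 1 bp with 81 of the 2074 (3.91%, 3.11 to 4.83), against 3.55% of all RING1B peaks of up to 2000 bp and 5.85% of the whole RING1B list. The share was 3.51% for short peaks wholly on H3K27me3, 3.48% across a border, 3.62% at 1 to 5 kb and 3.44% beyond 5 kb. All 4 of these values lay inside the interval of the flanking peaks, so with all widths together the share did not separate the flanking peaks from any of the 4.

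Within the set, the share went with width. Of the 856 flanking peaks of up to 500 bp, 15 held a PCGF1 peak (1.75%, 0.984 to 2.87). The share was 3.29% (2.12 to 4.85; 24 of 730) at 500 to 1000 bp and 8.61% (6.27 to 11.5; 42 of 488) at 1000 to 2000 bp. A wider peak offers more bases to share, and a like rise was seen farther out: short peaks of 1000 to 2000 bp held PCGF1 in 9.63% of cases at 1 to 5 kb and 8.68% beyond 5 kb. Border-crossing peaks did not show this order: 5.81% (3.48 to 9.02; 18 of 310) of those of up to 500 bp held PCGF1, above the interval of flanking peaks of that width, and 3.65% (2.42 to 5.26) of those of 1000 to 2000 bp did, below it.

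**Figure D3:**
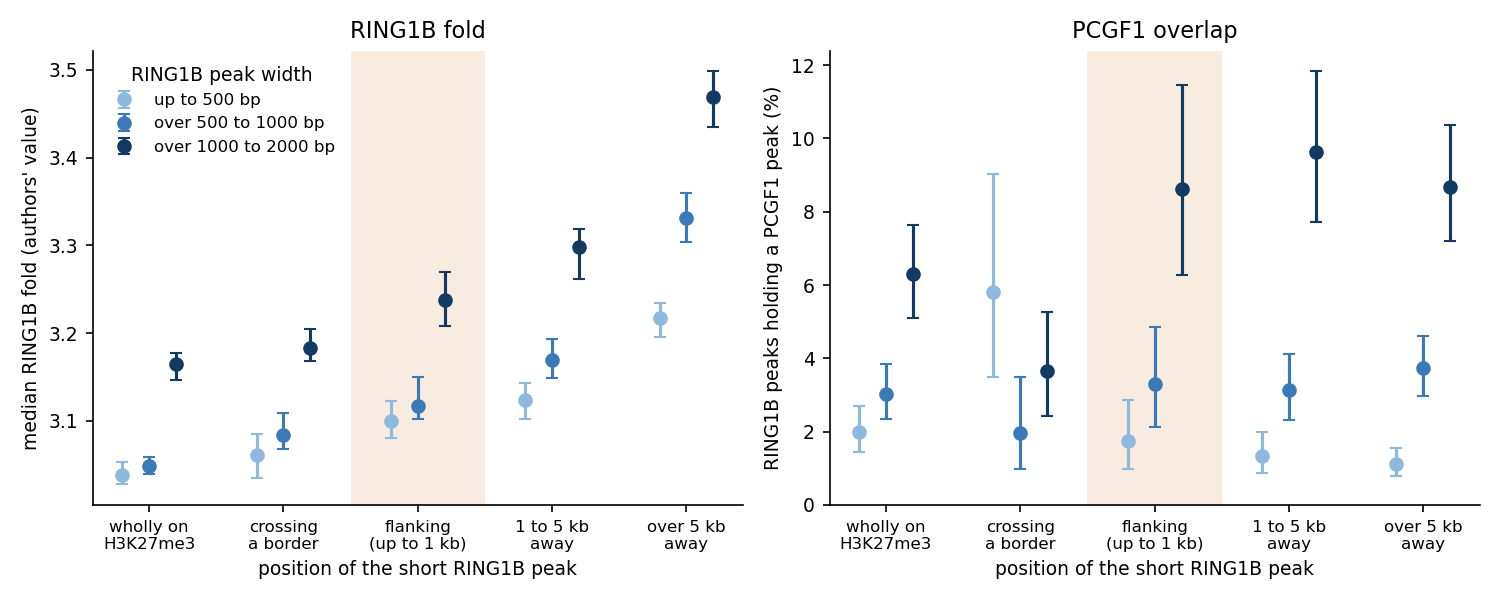
Median deposited RING1B fold (ratio to the caller's background) and share of peaks holding a PCGF1 peak (percent) for short RING1B peaks by position relative to H3K27me3 (x axis) and by peak width (colour), with 95% intervals for counting error and the flanking peaks shaded. At 1000 to 2000 bp fold rises from 3.16 on H3K27me3 through 3.24 in the flank to 3.47 beyond 5 kb, while the PCGF1 share of flanking peaks goes from 1.75% at up to 500 bp to 8.61% at 1000 to 2000 bp.

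The PCGF1 peaks under the flanking peaks had a width and fold close to those of their whole list. There were 92, with 1 in each of 70 flanking peaks and 2 or more in the other 11. Their median width was 228 bp (204 to 274), against 224 bp (215 to 233) over the whole PCGF1 list, and 65 lay wholly within the RING1B peak. Their deposited fold ran from 2.91 to 5.62 with a median of 4.73 (4.65 to 4.77), against 4.79 over the whole PCGF1 list. None had a −log10 q of 5 or more, against 64 of 2569 (2.49%) over the whole PCGF1 list. A share that small gives few peaks among 92, so a lower share here was not shown. Only 2 of the 92 reached from the RING1B peak onto H3K27me3.

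Within the RING1B peak, PCGF1 lay slightly more often away from the border. The PCGF1 midpoint fell between the centre of the RING1B peak and its H3K27me3 side in 31 cases and beyond the centre in 48, with 13 midpoints outside the RING1B peak. The median position was 61.0% of the way from the border side, with an interval of 50.5 to 71.6% that nearly reached the centre.

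With all widths together, flanking peaks with PCGF1 had a higher RING1B fold than those without, and fewer had another RING1B peak close by. The median RING1B fold was 3.31 (3.17 to 3.35) with PCGF1 and 3.14 (3.12 to 3.15) without. At a width of 1000 to 2000 bp the values were 3.31 (3.17 to 3.38) and 3.24 (3.20 to 3.27), and there the intervals overlapped. They overlapped in the narrower classes too. The values were 3.30 (2.90 to 3.47) and 3.10 (3.08 to 3.12) at up to 500 bp. At 500 to 1000 bp they were 3.32 (3.04 to 3.53) and 3.11 (3.10 to 3.14). Another RING1B peak within 2000 bp was found for 16.0% (8.83 to 25.9) of those with PCGF1 and 35.1% (33.0 to 37.3) of those without. The nearest H3K27me3 region held RING1B for 23.5% (14.8 to 34.2) of those with PCGF1 and 32.6% (30.6 to 34.7) of those without, and these intervals overlapped.

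The setting of the peaks on their far side was not used by the rule. A second H3K27me3 region lay within 1000 bp on the other side of 268 flanking peaks (12.9%, 11.5 to 14.4), within 2000 bp for 698 (33.7%) and within 5000 bp for 1175 (56.7%). The 268 peaks thus sat in short breaks in the mark, while a second region within 5000 bp is common in a list whose regions lay a median of 6050 bp apart. Peaks with the mark within 1000 bp on both sides held PCGF1 in 1.87% (0.608 to 4.30) of cases against 4.21% (3.33 to 5.24) for the rest, and the intervals overlapped. Their nearest region was taller, with a median height (the highest signal in a region, on a scale that is not given) of 93.1 against 79.1. It held RING1B in 41.4% (35.5 to 47.6) against 30.9% (28.8 to 33.1). It was also wider, with a median of 3900 bp (3430 to 4710) against 2625 bp (2430 to 2820). The part of region width in the RING1B contrast was not tested.

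Measured by the whole unmarked interval between 2 listed regions, the flanking peaks were most dense where that interval was 2 to 5 kb long. The 2074 peaks lay in 2026 of the 135358 intervals, 48 of which held 2. Intervals with a flanking peak had a median length of 4850 bp, against 6050 bp for all. Per Mb of flank there were 10.3 peaks (9.30 to 11.4) in intervals of 2 to 3 kb and 10.1 (9.12 to 11.1) in those of 3 to 5 kb. There were 6.73 (6.04 to 7.47) at 5 to 10 kb and 6.74 (5.64 to 7.98) beyond 50 kb. The value for intervals of up to 2 kb, 7.16, is limited by the need for a whole peak to fit.

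PCGF1 followed the interval the other way. It lay under 2.55% (1.69 to 3.68) of the 1060 flanking peaks in intervals of up to 5 kb, 4.67% of the 599 in intervals of 5 to 20 kb and 6.27% (4.13 to 9.05) of the 415 in longer intervals. The rise was seen at a width of 1000 to 2000 bp, from 4.21% (1.94 to 7.83) to 10.1% and 14.7% (8.78 to 22.4), with no overlap between the first and last intervals. It was not seen in narrower peaks, where the shares were 1.31, 2.62 and 1.76% at up to 500 bp and 3.08, 2.83 and 4.65% at 500 to 1000 bp, with overlapping intervals. RING1B peaks of 1000 to 2000 bp lying more than 1000 bp from H3K27me3 held PCGF1 in 8.12% (5.92 to 10.8) of cases in intervals of 5 to 20 kb. In longer intervals it was 9.59% (8.17 to 11.2), and the 2 overlapped. In intervals of up to 5 kb, 0 of 38 such peaks held it, which by a limit of 3 counts allows a share of up to 7.89%. Over all widths of up to 2000 bp, 0 of 333 peaks more than 1000 bp from H3K27me3 in those intervals held PCGF1. Its exact interval, 0 to 1.10%, lay below that of the flanking peaks there. The 2 groups were not matched for width, since 38 of the 333 were 1000 to 2000 bp wide, against 214 of the 1060 flanking peaks. Within each width class the exact intervals overlapped. RING1B fold rose with the interval as well, from 3.11 to 3.15 and 3.20 among all flanking peaks.

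**Figure D4:**
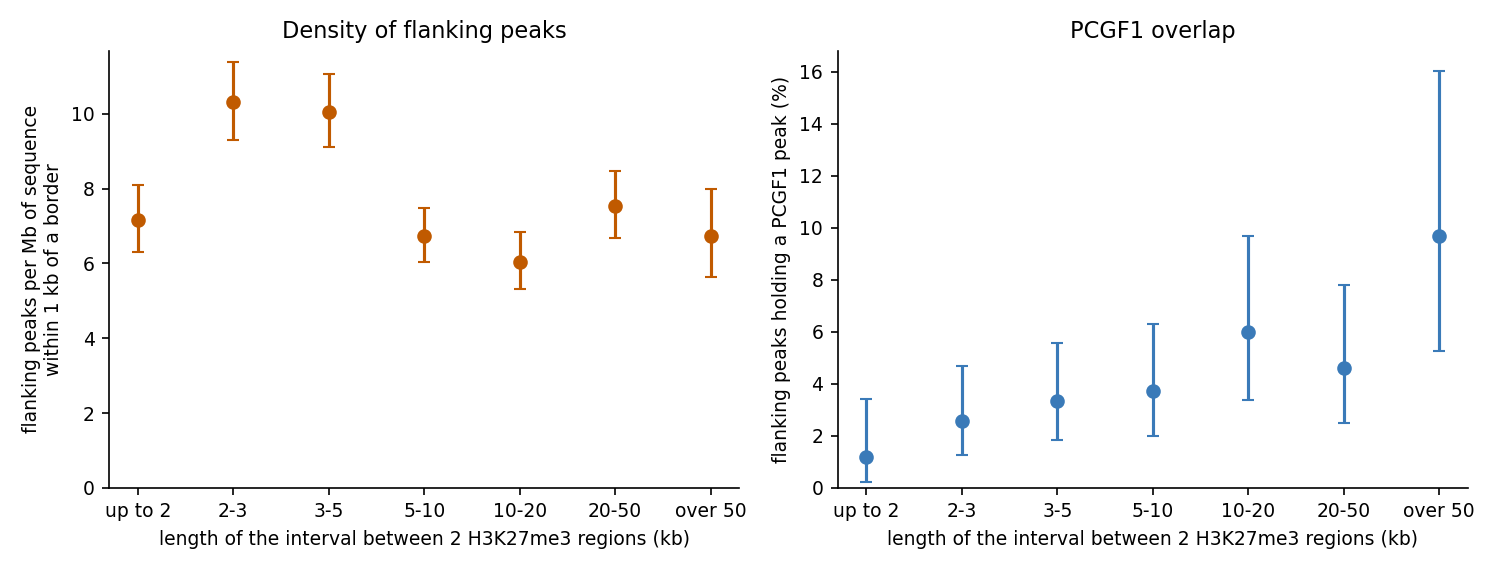
Flanking RING1B peaks per Mb of flank and the share of them holding a PCGF1 peak (percent), by length of the unmarked interval between listed H3K27me3 regions, with 95% intervals. Density is highest at 2 to 5 kb (10.3 and 10.1 per Mb), while the PCGF1 share goes from 1.18% in intervals of up to 2 kb to 9.70% beyond 50 kb.

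The H3K27me3 regions beside the flanking peaks were wider and taller than the rest. The peaks adjoined 2016 distinct regions, 1.49% of the list. They were 2810 bp wide at the median, against 1830 bp for the others, and had a median height of 81.1 (79.4 to 83.4) against 68.3. Wider regions were also taller, and within widths the difference in height was smaller among narrow regions. It was 63.1 (61.1 to 64.8) against 59.4 at up to 1500 bp and 71.3 (69.7 to 73.4) against 66.6 at 1500 to 3000 bp. Beyond 12000 bp it was 132 (125 to 138) against 118. With the listed regions split into 4 equal groups by height, from the lowest to the highest, 0.873, 0.979, 1.37 and 2.73% were the nearest region of a flanking peak. The groups differed in median width as well, from 1300 bp in the lowest to 4430 bp in the highest, and the part of width was not tested. Height fell with distance among short peaks in general, from 84.3 for the region next to those within 500 bp and 78.3 at 500 to 1000 bp to 75.0 at 1 to 2 kb and 61.5 beyond 50 kb.

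These neighbouring regions often carried RING1B of their own. The nearest region held at least 1 RING1B peak for 669 flanking peaks (32.3%, 30.2 to 34.3), against 5.57% of all H3K27me3 regions. It held 2 or more for 208 (10.0%) and a RING1B peak wider than 2000 bp for 280 (13.5%). It held a PCGF1 peak for 53 (2.56%, 1.92 to 3.33), against 0.614% of all regions. The share with RING1B fell off with the gap of short peaks, from 32.8% within 500 bp and 31.7% at 500 to 1000 bp to 26.0% (23.9 to 28.3) at 1 to 2 kb, 19.0% at 2 to 5 kb and 7.03% beyond 50 kb.

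A wide region has more room for RING1B, and a difference was seen within widths too. For nearest regions of up to 1500 bp, RING1B lay on 14.8% (12.0 to 18.1) beside the flanking peaks, on 9.89% (8.46 to 11.5) for short peaks at 1 to 5 kb and on 1.37% of regions of that width that were not the nearest of any flanking peak. For regions of 1500 to 3000 bp the values were 22.3% (18.9 to 26.1), 15.6% (13.6 to 17.8) and 2.72%. For regions wider than 12000 bp they were 65.0% (58.5 to 71.0), 59.0% (53.3 to 64.6) and 33.6%. The flanking peaks thus stood above peaks at 1 to 5 kb beside narrow regions, while beside regions wider than 3000 bp the intervals of those groups overlapped.

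**Figure D5:**
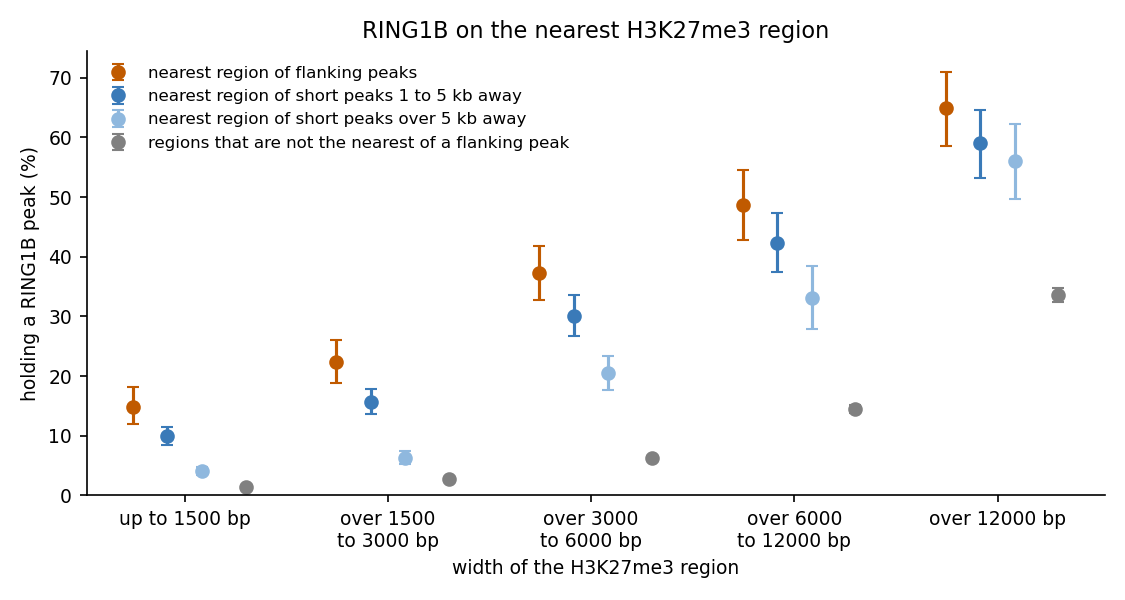
Share of nearest H3K27me3 regions that hold a RING1B peak (percent), by width of the region (bp), for flanking peaks, short peaks at 1 to 5 kb, short peaks beyond 5 kb and regions that are not the nearest of a flanking peak, with exact binomial 95% intervals. Flanking peaks have the highest share in each width class, from 14.8% to 65.0%, with intervals that overlap those of peaks at 1 to 5 kb for regions wider than 3000 bp.

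The size of this share depended on how weak a RING1B peak was counted. With the RING1B list limited to a −log10 q of 3 or more, 351 flanking peaks were left, and the nearest region held such a RING1B peak for 24 of them (6.84%, 4.43 to 10.0). The value for all H3K27me3 regions under the same limit was 2.27%, and for short peaks beyond 5 kb 3.35% (2.68 to 4.15). It was 5.32% (4.02 to 6.89) at 1 to 5 kb, within the interval of the flanking peaks. Counting RING1B peaks of any q on the region, the share for those 351 was 21.1% (16.9 to 25.7).

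Where a flanking peak and RING1B on the adjoining region occurred together, their distance varied widely and their median folds were similar. The median distance between the 2 RING1B peaks was 1549 bp (1394 to 1710), from 661 bp, the least spacing the list holds, to 63554 bp. It was within 2000 bp for 405 of the 669. The rule limits the gap to the region to 1000 bp, so a short distance was partly set in advance. The median fold was 3.12 for the flanking peak and 3.18 (3.15 to 3.20) for its neighbour, and the flanking peak was the lower in 379 of 669 pairs (56.7%, 52.8 to 60.4). These pairs were not matched for width. The rule limits the flanking peak to 2000 bp, while for 280 of the 669 the region held a RING1B peak wider than that. RING1B peaks wider than 2000 bp had a median fold of 3.56, and the part of width in this difference was not tested. Flanking peaks without RING1B on the adjoining region had a median fold of 3.15.

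Seen from the regions, 8.60% (7.97 to 9.25) of those holding RING1B were the nearest region of a flanking peak, against 1.07% (1.01 to 1.13) of those without. Of the 2016 adjoining regions, 1958 had a single flanking peak and 58 had 2, in 57 cases with 1 at each end. Another RING1B peak of any position lay within 2000 bp of 713 flanking peaks (34.4%, 32.3 to 36.5). That was between the 50.1% of short peaks wholly on H3K27me3 and the 25.9% at 1 to 5 kb.

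The flanking peaks were unevenly spread over chromosomes. Autosomes held 8.45 per Mb of flank (8.08 to 8.83), from 5.71 on chromosome 18 to 11.9 on chromosome 19. The X chromosome held 2.59 per Mb (2.02 to 3.28), in 69 peaks. Short RING1B peaks elsewhere were also scarcer on X, with 1.71 against 6.14 per Mb more than 1 kb away and 6.52 against 15.8 per Mb on H3K27me3. None of the 69 peaks on X held PCGF1, which by the same limit allows a share of up to 4.35%. The highest PCGF1 share was on chromosome 19, at 10.1% (4.73 to 18.3).

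The strongest flanking peaks seldom adjoined a region with RING1B. The highest fold, 8.48 with a −log10 q of 22.9, was at chromosome 12, 73106139 to 73106897, 678 bp from a region of height 88. The second, 7.31 at chromosome 7, 13887876 to 13888873, lay in a break in the mark, 125 bp from a region on one side and 997 bp from one on the other, and held a PCGF1 peak of fold 4.57. The third, 7.16 at chromosome 6, 94467643 to 94468642, also had the mark on both sides, at 122 and 478 bp. Of the 10 highest, only the peak at chromosome 12, 94129732 to 94131096, with a fold of 5.88, adjoined a region with RING1B, and there the nearest of 2 peaks had a fold of 2.66. The others on that list were at chromosome 5, 36431651 (6.95) and 130537924 (6.22), chromosome 7, 7140878 (6.83) and 54286147 (6.26), chromosome 14, 78837728 (6.39), and chromosome 10, 68772003 (6.34), each position being the start of the peak and each value its fold. Of these, the peak at chromosome 5, 130537924, also had the mark on both sides, at 383 and 683 bp, the latter from a region of height 172.

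The 91 flanking peaks with a −log10 q of 5 or more also adjoined RING1B less often than the whole set. The adjoining region held RING1B for 15.4% (8.67 to 24.5), below the interval of all flanking peaks. That region had a median width of 2190 bp (1560 to 3030), against 2790 bp (2590 to 2980) for the whole set. The part of region width in the lower share was not tested. The mark lay within 1000 bp on both sides of 15.4% (8.67 to 24.5) of the 91 peaks, an interval that held the 12.9% of the whole set. PCGF1 lay under 12.1% (6.19 to 20.6), above the interval of all flanking peaks. They were wider, at a median of 810 bp against 595 bp for the whole set, and the part of width in that share was not tested.

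The 5 highest PCGF1 folds lay under RING1B peaks with folds from 3.29 to 4.04, all above the median of the set and below its strongest sites. The highest, 5.62, was at chromosome 1, 158649207 to 158649534, inside a RING1B peak of fold 3.34 that starts at 158648727. The next was 5.42 under the RING1B peak at chromosome 15, 74551405 to 74552339, which had a fold of 4.04. The other 3 lay under peaks that start at chromosome 2, 65076096 and 132705093, and at chromosome 17, 43153589, with PCGF1 folds of 5.36, 5.28 and 5.20. None of the 5 adjoining H3K27me3 regions held RING1B.

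Beside the 5 tallest of the adjoining H3K27me3 regions the flanking peaks had folds near or below the median of the set. The tallest adjoining region, of height 680, ended 388 bp before a peak of fold 3.22 at chromosome 5, 92708199 to 92708531. The next, of height 423, was 123420 bp wide, held 8 RING1B peaks and ended 430 bp before a peak of fold 3.10 at chromosome 17, 36384671 to 36385045. The peak with the lowest fold of all, 1.84, was at chromosome 11, 3023583 to 3024173, beside a region of height 359. On chromosome 8, 3 flanking peaks that start at 19892632, 19937482 and 20019700 lay between regions of heights 214 and 445, 418 and 435, and 390 and 213. Their folds were 2.37, 2.29 and 2.47, below the lower quartile of the set. Their −log10 q values were 2.91, 1.91 and 5.36, so the third was among the 91 peaks with 5 or more despite its low fold. The part that local signal height plays in the low folds at these sites was not tested.

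Regions with a flanking peak at each end ranged from a compact domain to a broad one. The tallest of them, chromosome 12, 104583040 to 104596840 with a height of 165, held no RING1B itself and had flanking peaks of fold 3.41 and 3.56. The region at chromosome 3, 115256610 to 115266460, held 3 RING1B peaks between flanking peaks of fold 2.99 and 3.37. The region at chromosome 1, 107154480 to 107203300, spanned 48820 bp with 1 RING1B peak of fold 3.70 and flanking peaks of fold 3.84 and 3.08. The region at chromosome 6, 125160360 to 125164710, held a RING1B peak of fold 5.06 between flanking peaks of fold 3.09 and 2.85.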

How the data were processed

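The tools named in the submitters' processing notes are Bowtie2, Picard and SAMtools 1.6.0, and the builds are mm9 and dm3, each with no role. Chromosome names in the files are those of mm9. Caller, threshold, control library and pooling: not given in the sources used here. In the RING1B and PCGF1 lists the deposited fold is the ratio of a peak to the caller's background. The deposited −log10 values are of p and q, and the deposited score is 10 times the −log10 q, rounded down, and was not used further. The H3K27me3 regions carry, per the file headers, a height (highest signal, scale not stated), a width above a cutoff and a log p read as −log10, of which the last was not used.

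Peaks were set against regions by shared bases (at least 1 bp) or by gap, in python 3.11.15 with numpy 2.4.6, pandas 2.3.3, scipy 1.17.1 and matplotlib 3.10.9. Shares have exact Clopper-Pearson intervals, medians exact binomial intervals of order statistics and densities exact Poisson intervals, all at 95%. No test was made, since each list has no replicate values. The procedures were tested on simulated data. RING1B and PCGF1 positions are 1-based, and H3K27me3 positions are as listed.

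The rule, the comparisons and the classes were chosen with earlier results of these data known. Named sites were the 10 flanking peaks of highest fold, the 5 with the highest PCGF1 fold, the 5 beside the tallest regions, the 5 tallest pairs of regions around a flanking peak, the 5 regions with the most flanking peaks, and 3 on each side of each limit. A few of these were given by their range or left unnamed. Genes and sequences were not added, because the annotation used here is of another build, GRCm38.p6. Alternatives changed the gap, the width, the q limit, the height of regions, the overlap with PCGF1, the reach of the second side, the chromosomes and the base of H3K27me3 starts.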

Additional observations from a re-analysis of the deposited data

How the results depend on the processing

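Of 45 alternative values under 10 settings, 27 stayed within the interval or 1.5 times of the reported one and 18 moved. With a gap of up to 500 bp there were 1039 flanking peaks, 4.91% held PCGF1, 16.0% had the mark on both sides, and the median height of the adjoining region was 84.3. With a gap of up to 2000 bp the values were 3656 peaks, 7.33% with the mark on both sides, 29.6% with RING1B on the adjoining region and a height of 78.3. A width of up to 1000 bp gave a PCGF1 share of 2.46% and a fold of 3.11. A −log10 q of 3 or more gave 351 peaks, a PCGF1 share of 7.69%, a fold of 3.79, RING1B on 6.84% of adjoining regions and a height of 73.7. The taller 50% of H3K27me3 regions gave RING1B on 40.2% and a height of 93.4. H3K27me3 within 5000 bp on each side was found for 56.7%. Autosomes alone, PCGF1 within 1000 bp, 50% of the PCGF1 peak covered and H3K27me3 starts read as 1-based, the last chosen after seeing the data, moved no value beyond its interval. No paired analysis was possible because each list stands for both libraries, its columns carry no replicate number, and no test was made. Depth is unknown, and shares resting on few peaks have wide intervals.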
